A study of Mus musculus with 6 samples.

Results

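The small nucleolar RNA (snoRNA) host transcripts described here are 10 spliced non-coding transcripts, Snhg1, Snhg3, Snhg4, Snhg5, Snhg6, Snhg7, Snhg8, Snhg9, Snhg12 and Gas5, each the row of that symbol among the 23235 rows of the expression table. They were chosen by name with their levels and their change between the genotypes already known, so that each change is given as a description with no test. Growing oocytes of 2 genotypes were sequenced, with 3 samples each of 10 oocytes. Pabpn1-null oocytes were taken from Pabpn1 fl/fl;Gdf9-Cre mice. The Gdf9 promoter drives Cre in the oocyte and not in the somatic cells of the follicle. WT oocytes came from littermates, and all mice had a C57BL/6J background. The age of the mice and whether each sample came from a separate animal were not given in the sources used here, so that the spread between samples may be partly technical. Complementary DNA was made with Smart-seq2 from oligo-dT primers, and a transcript was captured through its poly(A) tail. For specific transcripts that they assayed, the authors reported shortened poly(A) tails in Pabpn1-null oocytes. The part of tail length in the levels given here was not tested.

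A snoRNA host gene is transcribed by RNA polymerase II and spliced, and the snoRNA is released from an excised intron. Box C/D snoRNAs guide ribose methylation of ribosomal RNA, and box H/ACA snoRNAs guide the conversion of uridine to pseudouridine. The spliced exons of non-coding hosts are a by-product that in many cell types is short-lived, and in human cells PABPN1, the nuclear poly(A)-binding protein, is known to promote nuclear decay of such polyadenylated host transcripts through the RNA exosome. Oocyte growth is a period of intense ribosome production, for which these snoRNAs are needed.

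The annotation placed 32 snoRNAs inside the 10 hosts, 21 of box C/D and 11 of box H/ACA. Gas5 held 9 box C/D snoRNAs, Snhg1 held 8, Snhg5 held 2 and Snhg6 held 1. Snhg3, Snhg4 and Snhg7 held 2 box H/ACA snoRNAs each, and Snhg8 and Snhg9 held 1 each. Snhg12 held both kinds, 3 of box H/ACA and 1 of box C/D. The kinds differ in short sequence boxes, and the following stretches of the mm9 genome, written 5′ to 3′ on the strand of the host, are shown because the ratios of Pabpn1-null to WT level of the 10 hosts are set beside them below. For box H/ACA the last 30 bases of the snoRNA are given with the ACA box in capitals, and for box C/D the first 30 bases with the letters TGATGA of the C box in capitals.
Snora78 in Snhg9 (chr17:24856621-24856748, minus strand): tgggagggtgaaacccaggcccctACAttc
Snora73b in Snhg3 (chr4:131908237-131908441, minus strand): ctgaggagacaaaccatgcaggaaACAaaa
Snora43 in Snhg7 (chr2:26493367-26493505, minus strand): gcactaagaatggtttgtagcctgACAttt
SNORD27 in Snhg1 (chr19:8799021-8799092, plus strand): cacttaaTGATGAacaatgtaaatgacaag
SNORD44 in Gas5 (chr1:162966813-162966872, plus strand): cctgcaTGATGAcgaacaaatactgactac
SNORD50 in Snhg5 (chr9:88416367-88416438, minus strand): agtctaTGATGAtcctatcccgaacctgaa

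Among the snoRNAs with mm9 coordinates in Snhg1, Snhg3, Snhg5, Snhg7, Snhg9, Snhg12 and Gas5, 16 of 20 box C/D members held TGATGA within their first 30 bases and 7 of 8 box H/ACA members held ACA within their last 10. Over all snoRNAs of these kinds on the chromosomes read, TGATGA was present in 61.4% of 101 box C/D genes and ACA in 64.9% of 444 box H/ACA genes. Only the strand of the snoRNA was searched, and the snoRNAs of Snhg4 were not used here.

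Host transcripts of this kind are known in mammals for a pyrimidine tract at the 5′ end of the RNA, as in the messenger RNAs of ribosomal proteins. RefSeq start sites (GRCm38.p6) were given for 8 of the 10 hosts, with 2 starts for Gas5, and each of these 9 sequences matched the mm9 genome at one place. The windows run from 10 bases before the start to 20 after it, with capitals for a C within 5 bases of the start that opens a run of at least 5 C or T letters, searched on the strand of the host.
Snhg9 (chr17:24856891-24856920, minus strand): actttCCCTCgccgaagccgcgccctacac
Snhg3 (chr4:131909582-131909611, minus strand): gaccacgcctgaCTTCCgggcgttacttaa
Snhg7 (chr2:26495745-26495774, minus strand): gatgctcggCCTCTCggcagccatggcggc
Snhg8 (chr3:123211235-123211264, minus strand): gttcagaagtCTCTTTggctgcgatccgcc
Snhg12 (chr4:131864583-131864612, plus strand): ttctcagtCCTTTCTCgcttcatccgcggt
Gas5, downstream start (chr1:162965287-162965316, plus strand): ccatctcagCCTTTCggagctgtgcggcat
Gas5, upstream start (chr1:162964722-162964751, plus strand): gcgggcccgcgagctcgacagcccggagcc
Snhg5 (chr9:88417716-88417745, minus strand): gcggtgaaccgggctcgttcttttacgacg
Snhg1 (chr19:8797967-8797996, plus strand): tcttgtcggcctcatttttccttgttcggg

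Such a run was found in 6 of the 8 hosts, for Gas5 at the downstream start alone. Of all 32851 RefSeq start windows, counted by window and not by gene, 18.3% held one. The hosts with the run included Snhg9, with the largest ratio of Pabpn1-null to WT level, and Gas5, with the smallest. In Snhg9, however, the run lay wholly before the annotated start and so outside the annotated RNA, and in Snhg3 it opened at base 3 of the RNA. Snhg1 and Snhg5 had T-rich stretches near the start that did not meet the rule, and Snhg4 and Snhg6 had no entry.

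Values are FPKM (fragments per kilobase of transcript, scaled to the mapped fragments of the sample), so that levels are per length and can be set beside each other. The number of reads behind each FPKM is not known from the table, and low levels rest on few reads. Of the rows, 12523 had an FPKM above 1 in at least 1 sample, and all 10 hosts were among them. Snhg7 and Snhg12 passed this filter through Pabpn1-null samples alone and therefore had to be higher in these. Pabpn1 measured 0.595, 0.878 and 1.37 FPKM in the Pabpn1-null samples, against 21.9, 33.4 and 21.8 FPKM in the WT samples, as labelled. All 8 oocyte markers examined were above 1 FPKM in every sample, with a summed level of 15486 to 17173 FPKM in Pabpn1-null and 13889 to 16232 FPKM in WT samples. The sum hides changes of single markers, of which 5 were called higher and 2 lower (over all rows, 27.9% higher and 20.2% lower). Their log2 changes ran from -1.04 (Oosp1) to 1.47 (Ddx4). The 10 granulosa cell markers summed to 31.3 to 43.0 FPKM in Pabpn1-null and 30.8 to 38.6 FPKM in WT samples. Foxl2, Fst, Inhba and Amh stayed below 1 FPKM throughout, while Inha, Cyp19a1, Nr5a2, Kitl and Fshr were above 1 FPKM in every sample. Amh was listed at 0.216, 0.562 and 0 FPKM in the Pabpn1-null samples and at 0 in the WT samples. Inha was called higher, at 13.1, 18.8 and 5.81 FPKM in the Pabpn1-null samples and 7.24, 3.11 and 5.04 FPKM in the WT samples. Cyp19a1 was called lower, at 3.41, 4.28 and 6.10 FPKM in the Pabpn1-null samples and 9.25, 13.2 and 20.3 FPKM in the WT samples. The part of granulosa cell RNA in the results was not tested. Levels were measured on pools of oocytes, and fewer cells with a transcript and less of it per cell cannot be told apart.

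In the test across all 12523 rows (limma on log2(FPKM + 1), Benjamini-Hochberg adjusted p under 0.05), 7 of the 10 hosts were called higher in Pabpn1-null oocytes, 1 was called lower and 2 were not called. Over all rows, 27.9% were called higher and 20.2% lower, and since the hosts were chosen from this contrast nothing is read from the comparison. Of the calls over all rows, 57.9% were higher as deposited, 71.1% with the same total FPKM per sample and 20.5% with factors estimated from a supplementary table. The same 7 hosts had every Pabpn1-null sample above every WT sample, as did 33.3% of all rows, and the same single host, Gas5, had every Pabpn1-null sample below every WT sample, as did 24.7% of all rows. The ratio of mean FPKM ranged from 46.4 for Snhg9 to 0.611 for Gas5. The median log2 change (Pabpn1-null minus WT, of FPKM + 1) was 1.11 over the 10 hosts and 0.09 over all rows.

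**Figure D1:**
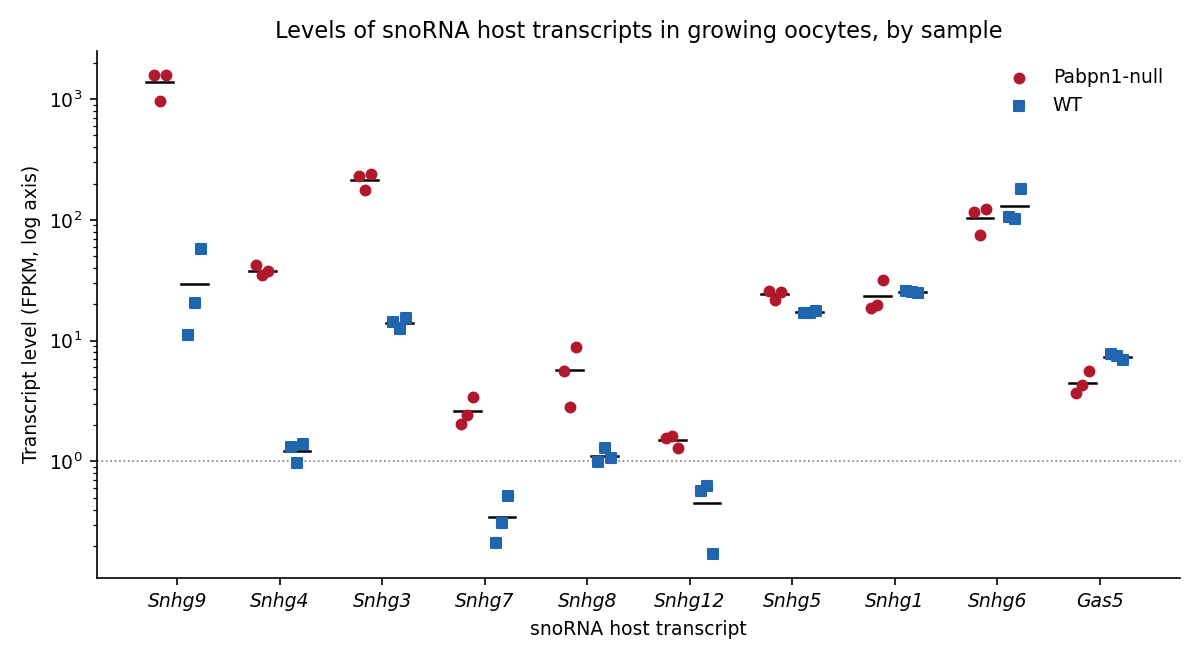
Levels of the 10 snoRNA host transcripts in each sample, in FPKM on a log axis, with Pabpn1-null samples as circles and WT samples as squares, replicates 1 to 3 from left to right within each group and the mean as a bar. The dotted line marks 1 FPKM. The genotypes are apart for Snhg9, Snhg4, Snhg3, Snhg7, Snhg8, Snhg12, Snhg5 and Gas5 and overlap for Snhg1 and Snhg6.

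Snhg9 is a short 2-exon transcript that lies at chr17:24856476-24856910 of mm9 on the minus strand. Its span overlaps that of Rps2, a ribosomal protein gene on the plus strand. The level of Snhg9 was 1593, 956 and 1578 FPKM in the Pabpn1-null samples, against 11.2, 20.4 and 57.5 FPKM in the WT samples. The lowest Pabpn1-null sample was 16.6 times the highest WT sample. The means were 1376 ± 363 FPKM in Pabpn1-null and 29.7 ± 24.5 FPKM in WT oocytes (SD, n = 3 each), a ratio of 46.4 and a log2 change of 5.76 (SE 0.46). WT replicate 3 stood apart from the other WT samples, and without it the ratio was 87.2. Ranked by mean level, Snhg9 was number 39 of the 12523 rows in Pabpn1-null oocytes and number 3142 in WT oocytes.

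The annotated Snhg9 transcript has 183 exonic bases, of which 14 overlap exons of Rps2 on the other strand. The counting was not stated to use strand, so that reads in this overlap could belong to either gene. Rps2 itself measured 286, 268 and 276 FPKM in the Pabpn1-null samples and 273, 236 and 260 FPKM in the WT samples, with a log2 change of 0.11 (SE 0.12, adjusted p = 0.458, limma). This gene was not called in the values as deposited, but it was called higher with quantile normalization or the same total FPKM per sample and lower with factors estimated from a supplementary table. In a transcript as short as Snhg9, FPKM also depends strongly on the length that the quantification assumed.

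Snhg4 hosts 2 box H/ACA snoRNAs of the SNORA74 family, whose founding member is known as U19. It has 4 exons at chr18:35713064-35717970 of mm9 on the plus strand. Snhg4 measured 42.0, 34.8 and 37.4 FPKM in the Pabpn1-null samples and 1.32, 0.967 and 1.38 FPKM in the WT samples. The Pabpn1-null samples lay close together, and each was more than 25 times the highest WT sample. The means were 38.1 ± 3.67 and 1.23 ± 0.226 FPKM for Pabpn1-null and WT (SD, n = 3 each), a ratio of 31.1. On the log2 scale of FPKM + 1, which understates changes from low levels, the change was 4.13 (SE 0.18).

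Snhg3 hosts the Snora73 snoRNAs, also known as U17, which act in the cleavage of the ribosomal RNA precursor and not in its modification. It lies at chr4:131903929-131909601 of mm9 on the minus strand, beside Rcc1. The level was 229, 176 and 238 FPKM in the Pabpn1-null samples, against 14.2, 12.5 and 15.4 FPKM in the WT samples. Both groups were narrow, with a highest-to-lowest ratio of 1.35 in Pabpn1-null and 1.23 in WT samples. The means were 214 ± 33.5 FPKM in Pabpn1-null and 14.0 ± 1.46 FPKM in WT oocytes (SD, n = 3 each), a ratio of 15.3 and a log2 change of 3.83 (SE 0.16). In the annotation, 135 of the 986 exonic bases of Snhg3 are also exonic in Rcc1 on the same strand, and 705 overlap the antisense transcript Gm17300, which was not a row of the table. Since the counting was not stated to use strand, reads in these 705 bases could belong to Snhg3 or to Gm17300. The part of Gm17300 in the level of Snhg3 was not tested.

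Snhg8 hosts Snora24, and Snhg7 hosts Snora43 and Snora17. Snhg8 measured 5.56, 2.83 and 8.84 FPKM in the Pabpn1-null samples, against 0.981, 1.29 and 1.07 FPKM in the WT samples. Its Pabpn1-null samples differed by 3.13 times from lowest to highest, the widest Pabpn1-null spread of the 10 hosts, although all 3 exceeded the WT samples. The ratio of means was 5.16 and the log2 change 1.57 (SE 0.31), which was not called when all 23235 rows were tested. Snhg7, at chr2:26492697-26495764 on the minus strand, had 2.05, 2.44 and 3.40 FPKM in the Pabpn1-null samples and 0.212, 0.309 and 0.513 FPKM in the WT samples. The ratio of means was 7.63 and the log2 change 1.42 (SE 0.20), and no WT sample passed 1 FPKM.

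Snhg12, the host of Snora16a, Snora44, Snora61 and Snord99, lies at chr4:131864593-131866939 on the plus strand, on the same chromosome as Snhg3. It measured 1.57, 1.63 and 1.30 FPKM in the Pabpn1-null samples, against 0.567, 0.621 and 0.172 FPKM in the WT samples. The ratio of means was 3.31, with a log2 change of 0.80 (SE 0.19, not called with the factors estimated from the supplementary table), the smallest of the hosts that hold a box H/ACA snoRNA. All of its values were low, and Snhg12 ranked 10694 of 12523 by mean level in Pabpn1-null oocytes and 12086 in WT oocytes.

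Snhg5, the host of the SNORD50 snoRNAs, lies at chr9:88415894-88417721 on the minus strand. It had 26.0, 21.7 and 25.2 FPKM in the Pabpn1-null samples and 16.8, 17.0 and 17.6 FPKM in the WT samples. The groups did not overlap, with a ratio of means of 1.42 and a log2 change of 0.48 (SE 0.15), but with the factors estimated from the supplementary table the log2 change was -0.06 and its direction turned. Its call was also lost with median-of-ratios scaling, with quantile normalization, and without Pabpn1-null replicate 1, Pabpn1-null replicate 3 or WT replicate 1. Snhg5 is the only one of the 10 hosts with box C/D snoRNAs alone that was called higher.

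Snhg1, which hosts SNORD25 to SNORD31 and Snord22, was among the first genes known to make a spliced RNA of little coding potential while its introns carry the functional product. It lies at chr19:8797986-8800932 on the plus strand. Its levels were 18.8, 19.9 and 32.0 FPKM in the Pabpn1-null samples and 25.6, 25.4 and 24.6 FPKM in the WT samples. The WT samples agreed within 1.04 times, while Pabpn1-null replicate 3 lay above them and the other Pabpn1-null samples below. The means of 23.6 ± 7.32 FPKM in Pabpn1-null and 25.2 ± 0.504 FPKM in WT oocytes (SD, n = 3 each) gave a ratio of 0.936 and a log2 change of -0.13 (SE 0.20), which was 0.06 with the same total FPKM per sample.

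Snhg6, the host of Snord87, was the most abundant of the 10 in WT oocytes, where it ranked 1034 of the 12523 rows. Its levels were 116, 75.6 and 122 FPKM in the Pabpn1-null samples, against 105, 102 and 180 FPKM in the WT samples. The groups overlapped, and WT replicate 3 was the highest of the 6 samples. The ratio of means was 0.810 and the log2 change -0.28 (SE 0.25), and without WT replicate 3 the ratio was 1.01.

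Gas5 (growth arrest-specific 5), with 9 snoRNAs the fullest of these hosts, is known for transcripts that are degraded by nonsense-mediated decay while they are translated. It lies at chr1:162964553-162968670 on the plus strand, and its annotated transcript with most exons has 12. Gas5 measured 3.65, 4.26 and 5.60 FPKM in the Pabpn1-null samples, against 7.76, 7.40 and 6.93 FPKM in the WT samples. The groups did not overlap, with means of 4.50 ± 0.994 FPKM in Pabpn1-null and 7.36 ± 0.415 FPKM in WT oocytes (SD, n = 3 each). The ratio was 0.611 and the log2 change -0.62 (SE 0.19). Its call was lost with no filter, with every sample scaled to the same total FPKM, and without any of Pabpn1-null replicate 1, Pabpn1-null replicate 2 or WT replicate 1, while the level stayed lower in Pabpn1-null oocytes under all these settings.

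**Figure D2:**
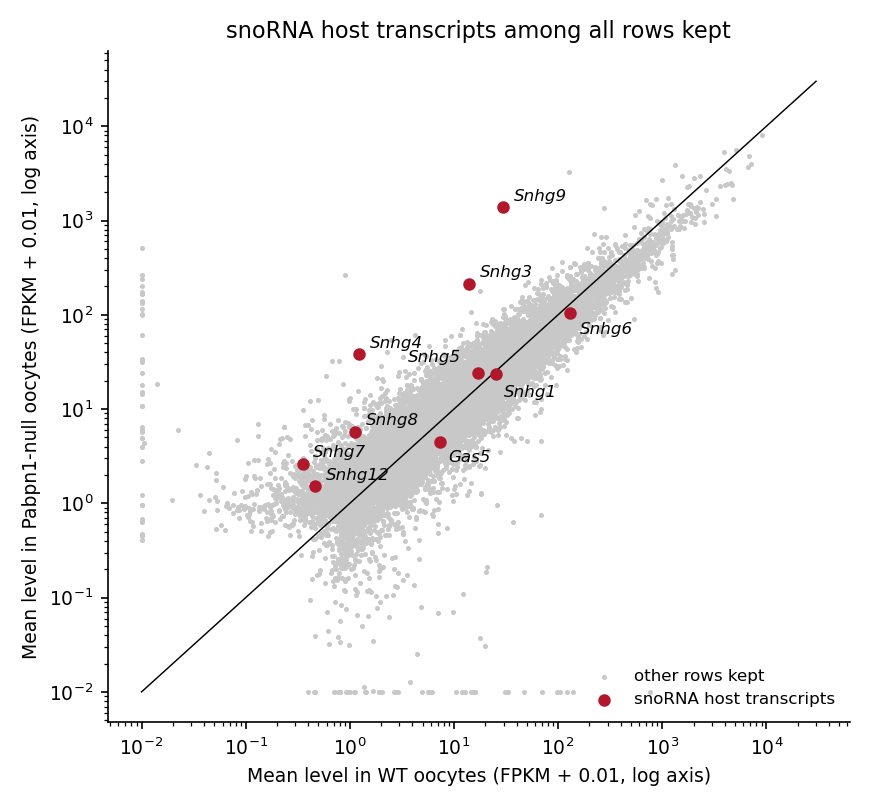
Mean FPKM of the 12523 rows kept in Pabpn1-null oocytes (vertical) against WT oocytes (horizontal), with 0.01 added and both axes logarithmic, and the line of equal levels. The 10 snoRNA host transcripts are named: Snhg9, Snhg4 and Snhg3 lie far above the line, and Snhg1, Snhg6 and Gas5 lie below it.

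The order of the hosts by level differed between the genotypes. In WT oocytes Snhg6 was highest, followed by Snhg9, Snhg1, Snhg5 and Snhg3, and the range of Snhg9 overlapped those of the other 3, so that its place rests on WT replicate 3. In Pabpn1-null oocytes Snhg9 was highest, followed by Snhg3 and Snhg6, and these groups of samples did not overlap each other. Snhg7 and Snhg12 were the lowest of the 10 in both genotypes, and their samples overlapped in WT oocytes. Pabpn1-null replicate 2 was the lowest Pabpn1-null sample for 6 of the 10 hosts, among them Snhg9, Snhg4 and Snhg3. Its total FPKM over all rows, 597103, was also the lowest of the 6 samples.

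The 10 hosts together made up 0.326%, 0.217% and 0.321% of the summed FPKM in the Pabpn1-null samples, against 0.0248%, 0.0279% and 0.0423% in the WT samples. Snhg9 alone was 73.8% to 78.2% of the hosts' sum in Pabpn1-null samples and 6.08% to 18.8% in WT samples. Without Snhg9 the other hosts still made up 0.0567% to 0.0742% in Pabpn1-null samples, against 0.0233% to 0.0343% in WT samples, and the groups did not overlap. This remaining rise lay in Snhg3 and Snhg4, whose means differed by 200 and 36.8 FPKM (Pabpn1-null minus WT). The difference was -24.6 FPKM for Snhg6 and between -2.86 (Gas5) and 7.15 FPKM (Snhg5) for the rest.

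Set beside the kind of snoRNA they hold, the hosts fell into separate ranges. The 6 hosts with any box H/ACA snoRNA had ratios of 3.31 to 46.4 and all were called higher, whereas the 4 hosts with box C/D snoRNAs alone had ratios of 0.611 to 1.42, with 1 called higher, 1 lower and 2 not called. Among the 6, Snhg7 and Snhg12 passed the filter only through Pabpn1-null samples and had to be higher, and the other 4 had ratios of 5.16 to 46.4. Shares over all rows were 27.9% higher and 20.2% lower, and nothing is read from the counts by kind, since the hosts were chosen from this contrast. This grouping was chosen after the values were seen, and it was not tested. The kinds also differed in WT level, with means of 0.345 to 29.7 FPKM for the first and 7.36 to 129 FPKM for the second, and the part of WT level in the ratios was not tested.

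Other non-coding hosts gave values for the same grouping in genes that were not among the 10. Of 14 rows, 12 passed the filter, of which 6 were called higher and 0 lower (0 lower also at an unadjusted p under 0.05), against 27.9% higher and 20.2% lower over all rows, with a median log2 change of 0.64. Among those with box H/ACA snoRNAs, 2810008D09Rik (Snhg20, host of SCARNA16) had 14.7, 14.7 and 16.9 FPKM in the Pabpn1-null samples, against 1.73, 0.630 and 1.22 FPKM in the WT samples. It rose by a log2 change of 2.94 (SE 0.22, adjusted p = 2.71e-05, limma). Snhg10, the host of Scarna13, measured 62.3, 50.3 and 71.8 FPKM in the Pabpn1-null samples and 11.2, 13.3 and 9.56 FPKM in the WT samples, with a log2 change of 2.33 (SE 0.18, adjusted p = 3.41e-05). SCARNA RNAs resemble snoRNAs but act in Cajal bodies on spliceosomal RNAs. The row 2700023E23Rik (Dancr, host of Snora26) had 5.30, 2.96 and 5.86 FPKM in the Pabpn1-null samples, against 0.137, 0 and 0.0830 FPKM in the WT samples, with a log2 change of 2.37 (SE 0.23). It passed the filter through Pabpn1-null samples alone and therefore had to be higher there, so that its test is not given, although it is counted among the 6. Each of these 3 had no overlap between the genotypes.

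Of the 6 other box H/ACA hosts in the table, 3 were not called higher. Gm11974 (Snhg15, host of SNORA9) had 17.5, 13.1 and 20.4 FPKM in the Pabpn1-null samples and 18.8, 14.8 and 16.4 FPKM in the WT samples, with a log2 change of 0.01 (SE 0.19, adjusted p = 0.961). Snhg11 and 9430008C03Rik (Snhg17), both hosts of SNORA71 snoRNAs, did not pass the filter, and their genotypes overlapped. Snhg11 averaged 0.252 FPKM in Pabpn1-null and 0.245 FPKM in WT oocytes, and 9430008C03Rik averaged 0.302 FPKM in Pabpn1-null and 0.531 FPKM in WT oocytes. Of the 5 other box C/D hosts kept, 3 were called higher and 2 were not called, with log2 changes of 0.41 to 1.42, against 0.01 to 2.94 for the 4 box H/ACA hosts kept. The ranges overlapped. Shares over all rows were 27.9% higher and 20.2% lower. The kept rows given no kind were C230091D08Rik and D7Ertd715e (both Snhg14) and 2410004N09Rik (Epb41l4aos). Their log2 changes were 0.44, -0.44 and -0.16, with no call, and the negative values lay below both ranges. The largest box C/D change was that of 1500012F01Rik (Zfas1, host of Snord12), at 46.9, 33.0 and 43.5 FPKM in the Pabpn1-null samples, against 18.1, 12.3 and 13.8 FPKM in the WT samples. This row was outside the rule for named genes and was chosen after its value was seen, as were Gm11974, Snhg11, 9430008C03Rik and the rows given no kind.

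**Figure D3:**
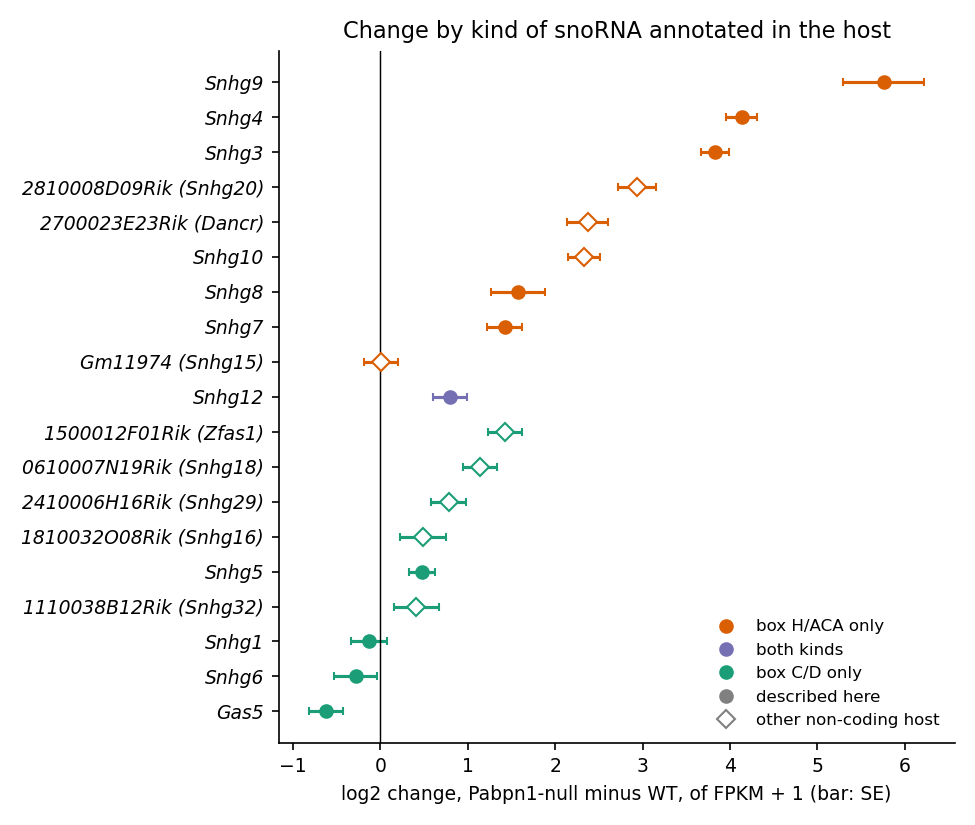
Log2 change (Pabpn1-null minus WT, of FPKM + 1, bars the SE from limma) of each non-coding host kept whose snoRNAs were given a kind here, grouped by kind from top to bottom. Kept hosts given no kind are not shown. Filled circles are the 10 hosts described here and open diamonds the other non-coding hosts. Hosts of box H/ACA snoRNAs reach 5.76 (Snhg9), with Gm11974 near 0, while hosts of box C/D snoRNAs alone lie between -0.62 (Gas5) and 1.42 (1500012F01Rik).

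Protein-coding genes can also carry snoRNAs in their introns. Of 47 such genes, all kept, 7 rose and 15 fell (over all rows, 27.9% higher and 20.2% lower), and the median log2 change was -0.16. With the same total FPKM per sample the higher calls were 14, and with the factors estimated from the supplementary table they were 3, against 31 lower. Hspa9, a mitochondrial chaperone, rose to 232 ± 38.6 FPKM in Pabpn1-null oocytes, against 95.5 ± 12.4 FPKM in WT (SD, n = 3 each; log2 change 1.27, adjusted p = 2.38e-04). Sf3b3, a subunit of the U2 small nuclear ribonucleoprotein, rose by 1.18 (adjusted p = 3.61e-04), and Wdr43, a factor of small subunit assembly, by 1.13 (adjusted p = 2.53e-04) on the log2 scale. Dkc1, the pseudouridine synthase that works with box H/ACA snoRNAs, fell to 45.1 ± 0.894 FPKM in Pabpn1-null oocytes, against 103 ± 14.1 FPKM in WT (SD, n = 3 each; log2 change -1.17, adjusted p = 2.30e-04). Rpl30 and Rpl5, ribosomal proteins of the large subunit, fell by 0.87 (adjusted p = 0.00743) and 0.85 (adjusted p = 3.04e-04). Ribosomal protein genes made up 22 of the 47 hosts, and 13 of these fell and 0 rose (0 also at an unadjusted p under 0.05), a split made after the values were seen. Under the 4 other scalings 6 to 22 of them fell and 0 to 1 rose.

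The proteins that assemble with snoRNAs changed in both directions, with 3 of 20 higher and 6 lower (over all rows, 27.9% higher and 20.2% lower). Besides Dkc1, Naf1, an assembly factor of box H/ACA particles, was at 0.905, 0.943 and 0.938 FPKM in the Pabpn1-null samples, against 3.68, 5.68 and 1.54 FPKM in the WT samples (log2 change -1.16). Naf1 passed the filter through WT samples alone and had to be lower, so that its test is not given, although it is counted among the 6. Znhit6, an assembly factor of box C/D particles, fell by 0.77 on the log2 scale (adjusted p = 0.00332). Fbl, the methyltransferase of box C/D particles known as fibrillarin, rose by 0.67 (adjusted p = 0.0257). Phax, which takes part in the transport of box C/D snoRNAs, rose by 0.62 (adjusted p = 0.00631), and Ruvbl2, an ATPase of particle assembly, by 0.55 (adjusted p = 0.0177). The calls of Fbl and Ruvbl2 were lost without Pabpn1-null replicate 1 or 2, and with the factors estimated from the supplementary table Ruvbl2 had a log2 change of -0.00287 and Fbl and Phax were no longer called.

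Of 20 factors of nonsense-mediated decay and of the nuclear exosome pathway for polyadenylated RNA, 6 rose and 4 fell, shares close to those over all rows (27.9% higher and 20.2% lower). Upf3b, a nonsense-mediated decay factor, fell to 3.69, 5.42 and 6.32 FPKM in the Pabpn1-null samples, against 18.9, 23.6 and 28.3 FPKM in the WT samples (log2 change -2.01, adjusted p = 1.53e-04, limma). Rbm26, a zinc-finger protein of the pathway, fell by 1.13 (adjusted p = 0.00123), and Exosc3, a subunit of the exosome cap, by 1.01 (adjusted p = 9.35e-04) on the log2 scale. Zc3h3, which takes part in nuclear polyadenylation and decay, rose to 15.0, 23.3 and 12.1 FPKM in the Pabpn1-null samples, against 3.86, 4.81 and 3.30 FPKM in the WT samples (log2 change 1.80, adjusted p = 3.81e-04). Exosc10, the nuclear exonuclease of the exosome, rose by 1.38 (adjusted p = 1.34e-04), and 1200011M11Rik (Smg8, a partner of the kinase of nonsense-mediated decay) by 1.14 (adjusted p = 2.42e-04). The part of these transcripts in the levels of the hosts was not tested.

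The genes beside and overlapping each host were set beside it. Of 24 such genes, 19 were kept, of which 8 were called higher and 1 lower (over all rows, 27.9% higher and 20.2% lower), with a median log2 change of 0.36. Among the 8, Zfp949 and Ppp1r42 passed the filter through Pabpn1-null samples alone and had to be higher, so that nothing is read from this count. Around Snhg4 both neighbours rose: Matr3, a nuclear matrix protein, had 121, 113 and 117 FPKM in the Pabpn1-null samples, against 34.2, 57.1 and 52.8 FPKM in the WT samples (log2 change 1.30, adjusted p = 5.30e-04, limma). Sil1, a chaperone cofactor of the endoplasmic reticulum, rose by 0.86 (adjusted p = 7.71e-04), and both changes were smaller than the 4.13 of Snhg4. Rcc1, the exchange factor of Ran beside Snhg3, measured 14.4, 23.0 and 14.9 FPKM in the Pabpn1-null samples and 6.15, 8.27 and 8.42 FPKM in the WT samples, and rose by 1.08 (adjusted p = 0.00298). Its mean in Pabpn1-null oocytes, 17.4 FPKM, was far below the 214 FPKM of Snhg3.

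Beside Snhg7, Fam69b (Dipk1b) rose by 0.81 (adjusted p = 0.00767) on the log2 scale, and beside Snhg5, Zfp949, a zinc-finger gene, had a log2 change of 0.53. Ppp1r42, beside Snhg6, had 4.06, 2.46 and 3.33 FPKM in the Pabpn1-null samples and 0.568, 0.830 and 0.803 FPKM in the WT samples, a log2 change of 1.29. Zfp949 and Ppp1r42 passed the filter through Pabpn1-null samples alone and had to be higher there, so that their tests are not given. The row 6030422M02Rik (Mcmdc2), which overlaps Snhg6, averaged 0.957 FPKM in Pabpn1-null and 0.525 FPKM in WT oocytes and was not called (log2 change 0.36). It passed the filter through Pabpn1-null replicate 3 alone, at 1.22 FPKM, so that its test is not given either.

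Zbtb37, a zinc-finger gene that overlaps Gas5 on the opposite strand, moved the other way from it and rose to 15.0, 15.3 and 15.0 FPKM in the Pabpn1-null samples, against 9.76, 9.77 and 8.50 FPKM in the WT samples (log2 change 0.64, adjusted p = 0.00832, limma). It shares no exonic base with Gas5 in the annotation. Serpinc1, the antithrombin gene next to Gas5, fell by 0.39 (adjusted p = 0.0418), a call that was lost under several settings. The factors estimated from the supplementary table ended the calls of Rcc1, Sil1, Fam69b and Zbtb37.

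**Figure D4:**
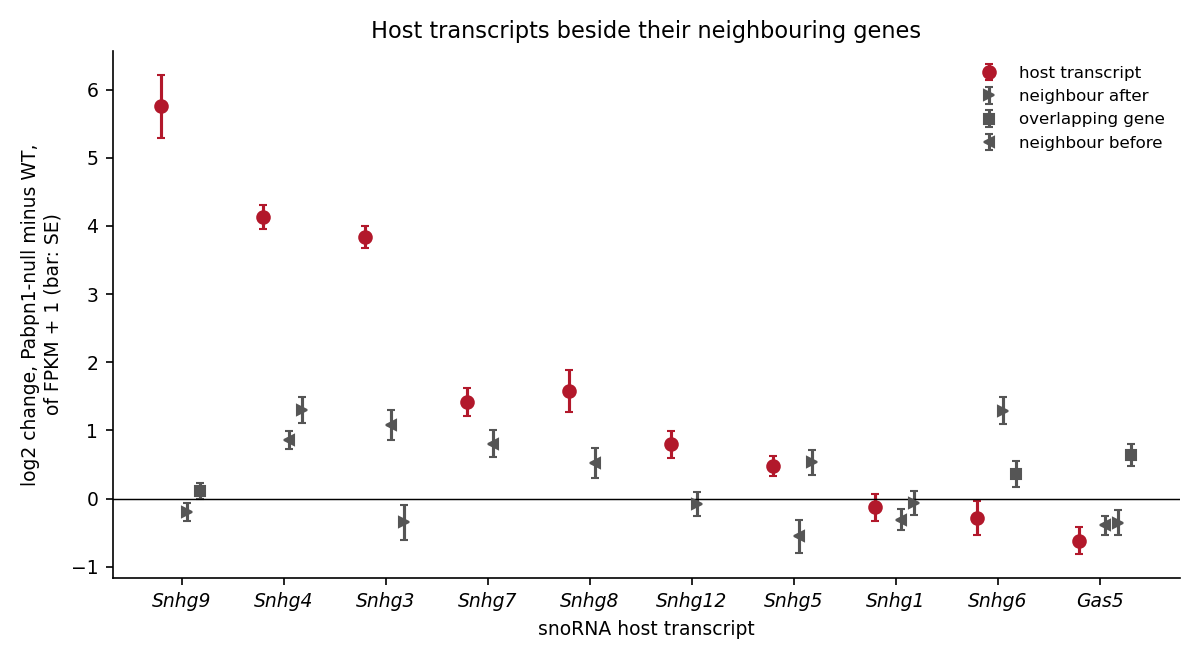
Log2 change (Pabpn1-null minus WT, of FPKM + 1, bars the SE from limma) of each snoRNA host transcript (circles) and of the kept genes before and after it in the RefSeq gene order, with the overlapping genes named in the text. Snhg9, Snhg4 and Snhg3 lie above 3.5 while their neighbours lie between -0.35 and 1.30, and for Gas5 the overlapping gene Zbtb37 lies above 0.

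The snoRNAs themselves gave little signal in these oligo-dT primed libraries. Of the snoRNAs inside the 10 hosts, 12 had a row of their own, and 9 of these were listed at 0 or below 0.01 FPKM in every sample. Snora78, inside Snhg9, was listed at 0, 7.10 and 7.53 FPKM in the Pabpn1-null samples and at 0 in every WT sample. Snora16a, inside Snhg12, was listed at 11.9, 0 and 0 FPKM in the Pabpn1-null samples and at 0 in the WT samples. Snora17, inside Snhg7, was listed at 13.4, 0 and 0 FPKM in the Pabpn1-null samples and at 0, 14.2 and 11.7 FPKM in the WT samples. For none of these 3 did the values separate the genotypes in every sample, and mature snoRNAs have no poly(A) tail.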

How the data were processed

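Libraries of 10 growing oocytes, 3 per genotype, were grouped by the labels. The authors mapped trimmed reads to mm9 with TopHat2 2.1.1 and quantified UCSC gene models with Cufflinks 2.2.1. The deposited table holds FPKM with 1 added, which was subtracted. A further ERCC normalization is stated, and the deposited FPKM differ from the supplementary group means by 1 factor per sample. These factors were estimated by least squares for an alternative scaling. Strand use was not stated, and the reads behind each FPKM are unknown.

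The 12523 rows that passed 1 FPKM in any sample were fitted with limma 3.58.1 in R 4.3.3 (lmFit, eBayes with trend, log2(FPKM + 1), genotype as the only term). P-values are two-sided and adjusted by Benjamini-Hochberg over all of them, with 0.05 as the limit. The fit was tested on simulated data. Coordinates came from GENCODE vM1 (mm9), names and gene order from RefSeq (GRCm38.p6). Snhg6 and Snhg8 were not matched in GENCODE vM1.

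The members and lists were chosen with earlier results of these data known. Named are the 10 hosts, Pabpn1, up to 3 called rows per direction and list by size of change, and neighbours that overlap a host or were called, of which 1 is not reported here. Alternatives were another pseudocount (0.1), other filters (none, or a mean of 5 FPKM or more), 4 scalings, 2 variance models, a replicate block and leaving out each of the 6 samples.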

Additional observations from a re-analysis of the deposited data

How the results depend on the processing

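The ratios of Snhg9, Snhg4, Snhg3, Snhg7, Snhg8 and Snhg12 stayed above 2 with each sample left out. Their log2 changes kept their sign under every alternative that kept them, while a mean of at least 5 FPKM dropped Snhg7, Snhg8 and Snhg12. Snhg7 and Snhg12 passed the main filter through Pabpn1-null samples alone and had to be higher, so that nothing is read from their sign. The scaling mattered most. The median log2 change over all rows was 0.09 as deposited, 0.26 with the same total FPKM per sample, 0.00 with median-of-ratios scaling, -0.01 with quantile normalization and -0.37 with factors to the supplement's group means. Calls over all rows were 3491 higher and 2535 lower as deposited, against 4350 and 1772 with the same total FPKM and 1153 and 4470 with those factors.

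Under those factors, the log2 change of Snhg5 was -0.0588 (against 0.48 as deposited), of Ruvbl2 -0.00287 (against 0.55) and of Rps2 -0.45 (against 0.11). Calls of the 10 hosts then numbered 5 higher (without Snhg5 and Snhg12) and 3 lower, of other non-coding hosts 4 higher and 1 lower, of protein-coding hosts 3 higher and 31 lower, of snoRNP proteins 0 higher and 10 lower, of decay factors 3 higher, and of flanking genes 2 higher and 9 lower. With quantile normalization, calls were 11 higher and 9 lower for protein-coding hosts, 1 lower for other non-coding hosts and 3 lower for flanking genes. Scaling to the same total gave 14 protein-coding hosts higher, and 0 of the 10 hosts and 0 flanking genes lower. The higher call of Snhg5 was lost under quantile normalization, under scaling by median-of-ratios factors, and when Pabpn1-null replicate 1, Pabpn1-null replicate 3 or WT replicate 1 was left out, and that of Snhg8 was lost with no filter, each leaving 6 hosts higher. Median-of-ratios scaling gave 2 flanking genes lower, and eBayes without trend 0. A mean of at least 5 FPKM, which keeps 7 of the 10 hosts, left 4 of them and 5 flanking genes higher. With no filter, and so more rows tested, 0 of the 10 hosts, 5 protein-coding hosts and 0 flanking genes were lower and 1 snoRNP protein was higher.

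Leaving out each sample in turn gave 6 to 7 of the 10 hosts higher and 0 to 1 lower, 6 to 7 other non-coding hosts higher and 0 lower, 6 to 7 protein-coding hosts higher and 11 to 15 lower, 1 to 4 snoRNP proteins higher and 6 lower, 5 to 7 decay factors higher and 3 to 4 lower, 7 to 9 flanking genes higher and 0 to 2 lower, and 2631 to 3454 rows higher and 1854 to 2761 lower over the table. Where 1 group had only 2 samples, it was assumed to vary like the other. Same-numbered samples did not deviate together (correlations -0.01, -0.01 and 0.06 across rows), so the numbers were not taken as pairs. With the replicate number as a block, 3478 rows were higher and 2528 lower, and the 10 hosts had 7 higher and 1 lower as before. Among the named genes the block ended the call of Zfp949 only.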
